A study of Homo sapiens with 4 samples.

Results

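The genes described here are 39 genes of the lysosome, chosen by name with earlier results of these data known. They cover membrane proteins of the organelle, its digestive enzymes and the proteins that move lipids out of it. The proton pump that acidifies it and the factors that switch its genes on are also included. All 39 were read from a table of 58735 genes, in which each had a row. The RNA came from SUP-M2 cells, a long-cultured line from a human ALK-positive lymphoma of the anaplastic large cell type, sequenced as 4 libraries in 2 groups. The controls were 2 libraries of cells with a scrambled hairpin (shscramble), and the other 2 were titled as carrying a short hairpin RNA against GOLM1 (shGOLM1), which encodes a Golgi membrane protein. The genotype label of the shGOLM1 samples says knockout, although a hairpin lowers a transcript and does not remove the gene. The labels give neither the hairpin sequence nor the time after transduction, and they do not say whether replicates were separate cultures, so every p-value below rests on a spread among libraries that may be technical.

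Lysosomes are acidic compartments in which cells break down proteins, sugars, lipids and worn-out organelles. Most of their soluble enzymes are made in the endoplasmic reticulum, receive a mannose 6-phosphate tag in the Golgi apparatus and are then carried to endosomes by receptors. The V-ATPase, a rotary pump with a membrane part (V0) and a cytosolic part (V1), drives protons in. The related transcription factors TFEB and TFE3 can enter the nucleus and bind a short palindrome in the promoters of many lysosomal genes.

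The palindrome is shown first, because the members that hold it include GAA, which was higher in both shGOLM1 libraries, as well as genes that were not. Promoter sequences of RefSeq (GRCh38.p14, from 250 bases before to 50 bases after a gene's start) were matched by symbol for 29 of the 39 members. The letters TCACGTGA, which read the same on both strands, stood in the promoters of 5 of those 29 members (17.2%) and in 1.18% of all 27305 genes with such a sequence, or 1.7% of the 14896 coding genes. The shorter core CACGTG, which the longer motif contains, stood in 8 of 29 members (27.6%) and in 8.77% of all genes, or 11% of the coding genes. The 5 members with the full palindrome were GAA, LAMP1, CTSA, MCOLN1 and ATP6V0D1, and capitals in the sequences mark the core. The GAA promoter held it at 2 places, whereas the stretch before LAPTM5, the member with the largest difference between the groups, held no core. Both are printed here from 5′ to 3′, with the LAPTM5 stretch ending where GENCODE 29 starts the gene:
GAA, chr17:80101331-80101580, plus strand: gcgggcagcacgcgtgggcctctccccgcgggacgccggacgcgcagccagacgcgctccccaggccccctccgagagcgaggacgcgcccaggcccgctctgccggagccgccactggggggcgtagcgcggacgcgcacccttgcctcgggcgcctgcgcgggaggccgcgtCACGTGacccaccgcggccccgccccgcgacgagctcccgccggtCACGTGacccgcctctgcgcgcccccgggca
LAPTM5, chr1:30757821-30758024, minus strand: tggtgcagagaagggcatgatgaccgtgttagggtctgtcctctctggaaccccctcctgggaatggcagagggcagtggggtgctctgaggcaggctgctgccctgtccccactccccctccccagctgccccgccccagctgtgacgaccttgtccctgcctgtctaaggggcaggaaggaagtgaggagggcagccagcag

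All 6 windows of 30 bases around the full palindrome in the other 4 genes are shown so that the bases beside it can be compared:
LAMP1, chr13:113297199-113297228, plus strand: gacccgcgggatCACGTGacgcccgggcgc
LAMP1, chr13:113297226-113297255, plus strand: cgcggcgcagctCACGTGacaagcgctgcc
CTSA, chr20:45891298-45891327, plus strand: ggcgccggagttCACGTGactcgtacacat
MCOLN1, chr19:7522571-7522600, plus strand: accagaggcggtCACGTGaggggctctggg
MCOLN1, chr19:7522598-7522627, plus strand: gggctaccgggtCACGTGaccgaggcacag
ATP6V0D1, chr16:67481199-67481228, minus strand: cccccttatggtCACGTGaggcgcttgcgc
A match in this window is a description of the sequence. Of these 5 genes, GAA was higher in both shGOLM1 libraries, and the other 4 were above both shscramble libraries in replicate 1 only. In replicate 2, LAMP1, MCOLN1 and ATP6V0D1 were below both of them, and CTSA lay between them.

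GOLM1 itself was at 212 and 213 CPM in shscramble replicates 1 and 2 and at 69.6 and 69.5 CPM in shGOLM1. CPM here are counts scaled to each library's total after TMM correction. The library totals ran from 27544171 to 31972153 counts. The shGOLM1 libraries differed from each other much more than the shscramble libraries did, with a coefficient of variation between replicates of 68.1% against 9.1%. Replicate 2 of shGOLM1 also had 0.455% of its counts on mitochondrial genes, against 1.95% to 2.38% in the other 3 libraries. The part of this library difference in the results below was not tested, so each result is given for both shGOLM1 libraries. All 8 markers of anaplastic large cell lymphoma that were looked for, among them TNFRSF8 and ALK, averaged at least 1 CPM in both groups, but some differed widely between libraries. TNFRSF8 was at 634 and 614 CPM against 539 and 88.4 CPM, ALK at 340.0 and 316 CPM against 327 and 170.1 CPM, and PRF1 at 2.91 and 2.71 CPM against 621 and 145 CPM. Of 10 myeloid markers only CSF1R did so. The summed myeloid markers were at 236 and 242 CPM in the controls against 310 and 232 CPM in shGOLM1, and SPI1, CD163 and CSF3R had 0 counts in every library. Of 8 B cell markers, BLK and EBF1 reached 1 CPM, the sum was 43.7 and 44.8 CPM against 76 and 17.4 CPM, and CD79B and MS4A1 had 0 counts throughout. Markers of fibroblasts summed to 0.276 and 0.902 CPM against 2.16 and 2.24 CPM, and those of epithelium to 0.613 and 0.812 CPM against 0.692 and 3.16 CPM. Those of the T cell receptor complex summed to 37.2 and 29.3 CPM against 46.3 and 106 CPM. Most of that sum was CD247, at 29.4 and 24.8 CPM against 35.1 and 87.6 CPM, while CD3G, TRBC1, TRBC2 and CD8A had 0 counts throughout.

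Of the 39 members, 38 had enough counts to be tested. LAPTM4B, a membrane protein of late endosomes and lysosomes, had 1 count in shscramble replicate 2 and 0 counts in the other 3 libraries, so it was at or below the limit of 3 counts (0.0865 to 0.132 CPM across libraries, counting error only) and no fold is given. Across the 38, edgeR's quasi-likelihood test over all 14166 genes called 0 members higher and 0 lower in shGOLM1 at an adjusted p under 0.05, as it did for 0% of all genes in either direction. GOLM1, the target of the hairpin, was not called by this test either (log2 fold change -1.61, SE 0.27, adjusted p = 0.42). DESeq2 gave GOLM1 an adjusted p of 0.0204. The lowest edgeR adjusted p among the members was also 0.42. At an unadjusted p under 0.05 the edgeR quasi-likelihood test had 4 members higher, against 8.2% of all genes, and 0 lower, against 3.58%. DESeq2 called 3 members higher, LAPTM5, CTSS and GAA, against 3.46% of all genes, and 0 lower, against 0.346%. The edgeR likelihood-ratio test called 3 higher (3.06% of all genes) and 0 lower (0.438%), and limma-voom called 0 in each direction (0%). With no filter on low counts edgeR called 2 members higher (0.691% of all genes) and 0 lower (0.0672%), and with the replicate number as a block 2 higher (1.19%) and 0 lower (0.24%). Leaving out control replicate 1 gave 0 members higher (0.107%) and 0 lower (0.0315%). Leaving out control replicate 2 gave 1 higher, LAPTM5 (0.101%), and 0 lower (0.0253%). The authors' deposited table calls 3 members higher, against 2.12% of its genes, and 0 lower, against 0.165%. The members' median log2 fold change was 0.52, beside 0.05 over all genes tested. Without shGOLM1 replicate 2 it was 0.16 and without shGOLM1 replicate 1 it was 0.71.

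The members' levels leaned upward in shGOLM1. Both shGOLM1 libraries lay above both shscramble libraries for 17 of the 38 members (44.7%), where 25.2% of all genes tested did so. Both lay below for 1 member (2.63%), where 26.5% of all genes did so. Of the 17, 5 had a log2 fold change of at least 1, LAPTM5, CTSS, GAA, NPC2 and LAPTM4A. These 5 of 38 are a share no larger than the 14.6% of all genes that were higher without overlap by as much. Lower by as much were 0 members, against 8.08% of all genes. The other 12 of the 17 ran from 0.37 for LIPA to 0.99 for TPP1 on the log2 scale. In replicate 1 taken alone, 25 of 38 members were above the shscramble mean and 5 were above it by at least 1 on the log2 scale. In replicate 2, 31 were above it, 14 of them by at least 1, and 2 were below it by at least 1. How many of all genes differed by at least 1 in each library is not given here. Those counts therefore describe the members only. Over all 14166 genes tested, 7111 were above the shscramble mean in replicate 1 and 6950 in replicate 2. The 39 members together took 0.308% and 0.305% of the counts in shscramble and 0.384% and 0.463% in shGOLM1.

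**Figure D1:**
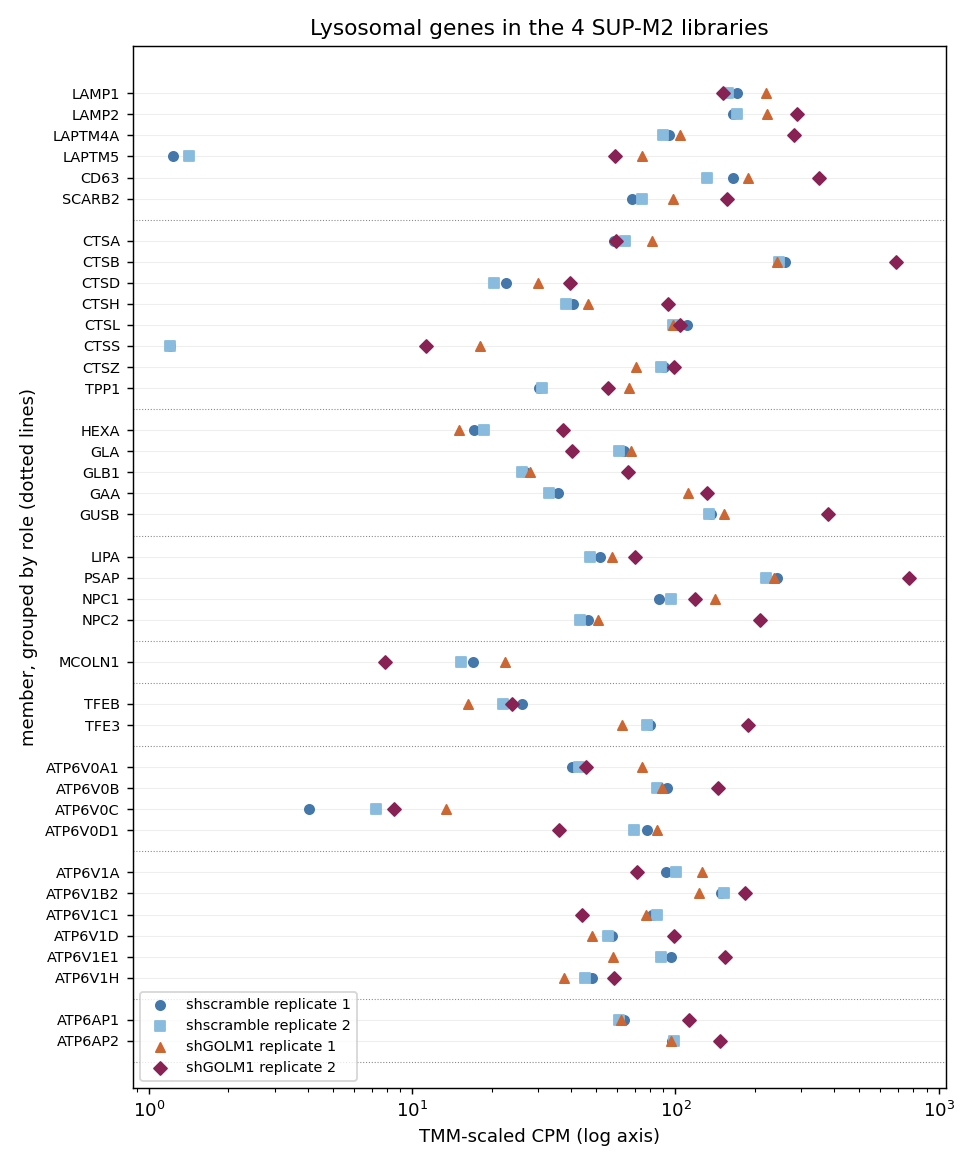
TMM-scaled CPM (log axis) of the 38 tested members in each of the 4 libraries, with members grouped by role between dotted lines. LAPTM5 and CTSS sit near 1 CPM in both shscramble libraries and far to the right in both shGOLM1 libraries, while most other members spread less and often only in shGOLM1 replicate 2.

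Among the membrane proteins the widest difference was in LAPTM5 (ENSG00000162511, chromosome 1, 30732469 to 30757820, GRCh38), a lysosomal protein of blood cells that routes antigen receptors to degradation. It had 40 and 47 counts in the shscramble libraries and 2587 and 1343 counts in shGOLM1 replicates 1 and 2, or 1.23 and 1.41 CPM against 74.6 and 59 CPM. The groups were far apart, 56.5-fold in replicate 1 and 44.7-fold in replicate 2 over the shscramble mean. The log2 fold change was 5.66 (SE 0.38), and edgeR gave an adjusted p of 0.42 and DESeq2 one of 7.74e-24, in a range from 7.74e-24 to 0.489 over the alternatives. In the authors' deposited table the log2 value is 5.64 (adjusted p = 7.78e-19). Among the broad leukocyte markers, ARHGDIB was at 0 counts in each control library, against 1039 and 843 counts in shGOLM1, whereas the sum of the 9 such markers was 1470 CPM in each shscramble library and 1840 and 2240 CPM in shGOLM1.

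The other membrane proteins differed less. LAPTM4A, a relative of LAPTM5 found in most tissues, was at 94.5 and 89.6 CPM in the controls against 104 and 282 CPM in shGOLM1, so that replicate 1 was barely above the controls and replicate 2 carried the difference (log2 fold change 1.07, SE 0.55, edgeR adjusted p = 0.486). CD63, a tetraspanin of late endosomes and exosomes, was at 166 and 131 CPM in the controls against 189 and 351 CPM in shGOLM1. SCARB2, a scavenger-receptor relative in the lysosomal membrane, was at 68.4 and 74.5 CPM against 97.5 and 157 CPM. For both genes all shGOLM1 values were higher, again by more in replicate 2. LAMP2, one of the abundant glycoproteins that line the lysosomal membrane, was at 166 and 171 CPM in the controls against 223 and 290 CPM in shGOLM1. Its relative LAMP1 was at 172 and 158 CPM against 222 and 152 CPM, so replicate 2 lay below the controls and the groups overlapped.

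**Figure D2:**
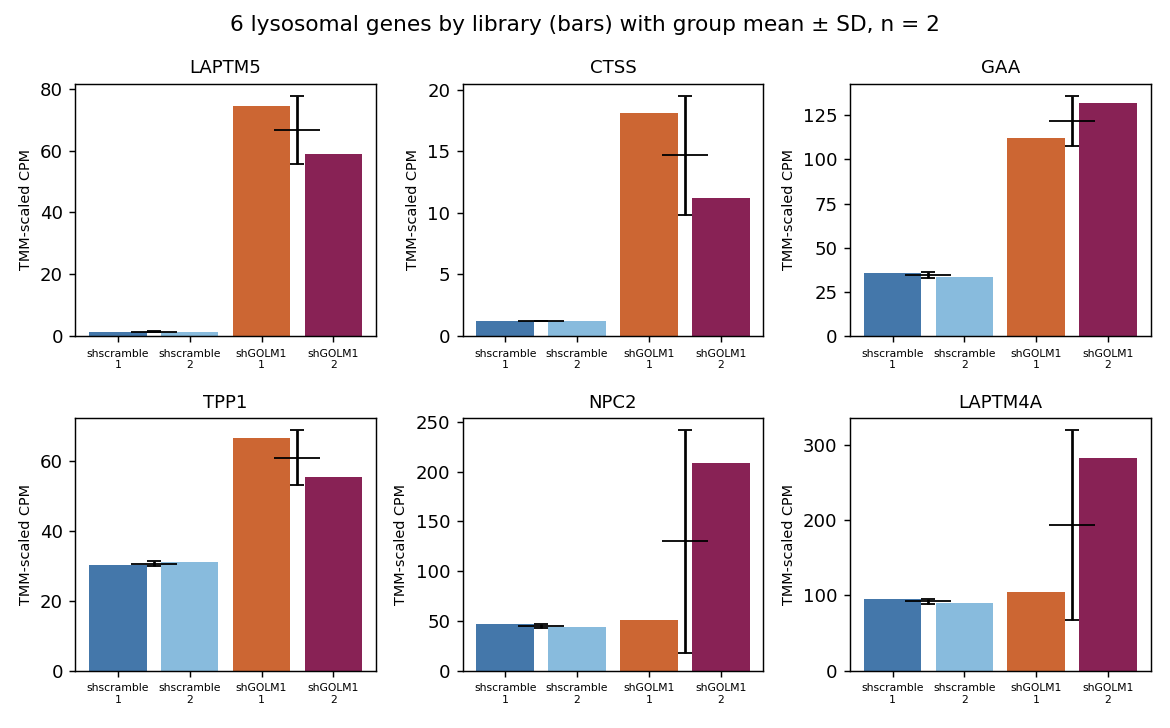
TMM-scaled CPM (linear axes from 0) of LAPTM5, CTSS, GAA, TPP1, NPC2 and LAPTM4A, with 1 bar per library and the group mean ± SD (n = 2) as a black mark. The upper row and TPP1 are high in both shGOLM1 libraries, while NPC2 and LAPTM4A stand out in shGOLM1 replicate 2 and are close to the controls in replicate 1.

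Among the proteases, CTSS showed the largest difference. CTSS (ENSG00000163131, chromosome 1, 150730196 to 150765957) encodes cathepsin S, a cysteine protease of antigen-presenting cells that trims the invariant chain of MHC class II. It had 39 and 40 counts in the controls against 628 and 256 counts in shGOLM1, or 1.2 and 1.2 CPM against 18.1 and 11.3 CPM. Both shGOLM1 libraries were thus far above the controls, by 15.1-fold and 9.38-fold. The log2 fold change was 3.61 (SE 0.49), and edgeR gave an adjusted p of 0.42. Over the alternatives that kept all 4 libraries, it ran from 4.55e-07 (DESeq2) to 0.489 (edgeR with library totals alone). TPP1, a serine protease that removes tripeptides and is lost in a childhood form of neuronal ceroid lipofuscinosis, was at 30.3 and 31.2 CPM in the controls against 66.6 and 55.5 CPM in shGOLM1. It was higher by 2.17-fold in replicate 1 and 1.8-fold in replicate 2, with a log2 fold change of 0.99 (SE 0.29) and adjusted p-values of 0.42 (edgeR) and 0.294 (DESeq2).

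CTSD, the main aspartic protease of the lysosome, was at 22.6 and 20.4 CPM in the controls against 30.1 and 39.7 CPM in shGOLM1. It shares 41.7% of its exon length with another coding gene on its strand. That gene had 0 and 0 counts in the controls and 3 and 0 in shGOLM1. CTSH, an aminopeptidase, was at 40.6 and 38.5 CPM against 46.6 and 93.9 CPM. The groups did not overlap for either gene, and replicate 2 was the higher library. CTSB, a cysteine protease, was at 261 and 247 CPM in shscramble, 243 CPM in shGOLM1 replicate 1 and 691 CPM in replicate 2, so it was higher in 1 library only. Per length, its shscramble mean of 33.8 FPKM was below those of CTSL and CTSZ, at 43.6 and 43.4 FPKM, and only in shGOLM1 replicate 2, at 90.3 FPKM, was it the most abundant protease of the set. CTSA, which protects beta-galactosidase and neuraminidase in a complex, was at 58.4 and 64.3 CPM against 81.7 and 59.6 CPM. CTSZ, another cysteine protease, was at 90.6 and 88 CPM in the controls against 70.9 and 98.5 CPM in shGOLM1, and edgeR called it lower in replicate 1 alone (adjusted p = 0.0198). The cysteine protease CTSL was at 111 and 97.7 CPM in the controls against 98 and 104 CPM in shGOLM1. Its difference, a log2 fold change of -0.04 (SE 0.27), was well inside its error.

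Of the sugar-cleaving enzymes, GAA stood out. GAA (ENSG00000171298, chromosome 17, 80101556 to 80119879) encodes acid alpha-glucosidase, which breaks down glycogen inside lysosomes and is deficient in Pompe disease. It was at 35.8 and 33.1 CPM in the controls against 112 and 132 CPM in shGOLM1, with mean values of 34.4 ± 1.88 and 122 ± 14.2 CPM (SD, n = 2 each). Both shGOLM1 libraries were higher by similar amounts, 3.25-fold and 3.83-fold. The log2 fold change was 1.83 (SE 0.29), and edgeR gave an adjusted p of 0.42 and DESeq2 one of 0.00616. Over the alternatives that kept all 4 libraries, it ran from 0.00455 (edgeR likelihood-ratio test) to 0.489 (edgeR with library totals alone). In the authors' deposited table the log2 value is 1.8 (adjusted p = 0.0294).

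GUSB, the beta-glucuronidase and the most abundant of the 5 per length, was at 137 and 134 CPM in the controls against 152 and 382 CPM in shGOLM1. Reads of GUSB can be shared with its many pseudogene copies, of which GUSBP1 had 428, 359, 194 and 59 counts in the 4 libraries in the order of shscramble then shGOLM1. GLB1, the beta-galactosidase, was at 26.7 and 26 CPM in the controls against 27.9 and 65.9 CPM in shGOLM1. HEXA, the enzyme gene mutated in Tay-Sachs disease, was at 17.2 and 18.8 CPM against 15 and 37.5 CPM. GLA, the alpha-galactosidase lost in Fabry disease, lay below the controls in replicate 2, at 63.8 and 60.9 CPM against 67.7 and 40.5 CPM. In these 4 genes replicate 1 was at 0.833-fold to 1.13-fold of the shscramble mean and replicate 2 at 0.649-fold to 2.82-fold.

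The lipid-handling proteins followed the same order. NPC2 (ENSG00000119655, chromosome 14, 74476192 to 74494177), a soluble protein that hands cholesterol to the membrane protein NPC1, was at 46.4 and 43.5 CPM in the controls against 50.9 and 209 CPM in shGOLM1. Replicate 1 was slightly above the controls, by 1.13-fold, and replicate 2 by 4.64-fold (log2 fold change 1.53, SE 0.73, edgeR adjusted p = 0.472). PSAP, the precursor of the saposins that help enzymes reach glycolipids, was at 243 and 221 CPM in the controls against 236 and 773 CPM in shGOLM1. It was the most abundant member per length in both groups, at a mean of 70.8 FPKM in shscramble and 151 FPKM in shGOLM1. NPC1 was the exception to this order, at 86.7 and 96 CPM in the controls against 142 and 119 CPM in shGOLM1, higher in both and more so in replicate 1. LIPA, the acid lipase that frees cholesterol from its esters, was at 51.6 and 47.2 CPM against 57.6 and 70.4 CPM.

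MCOLN1, a calcium channel of the lysosomal membrane, split the shGOLM1 libraries. It was at 17 and 15.3 CPM in shscramble, at 22.6 CPM in replicate 1 and at 7.86 CPM in replicate 2. With a single shGOLM1 library against both controls, edgeR called it higher in replicate 1 (adjusted p = 0.0166) and lower in replicate 2 (adjusted p = 0.000104). In such fits the spread of the lone library is taken to be that of the control pair, so the comparison is between libraries and not between conditions. TFE3 did the reverse, at 79.8 and 78.1 CPM in the controls against 62.4 and 189 CPM in shGOLM1, called lower in replicate 1 (edgeR adjusted p = 0.0189) and higher in replicate 2 (3.51e-08). TFEB was at 26 and 22.1 CPM in the controls against 16.3 and 24 CPM in shGOLM1, so neither of the transcription factors was higher in both shGOLM1 libraries.

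**Figure D3:**
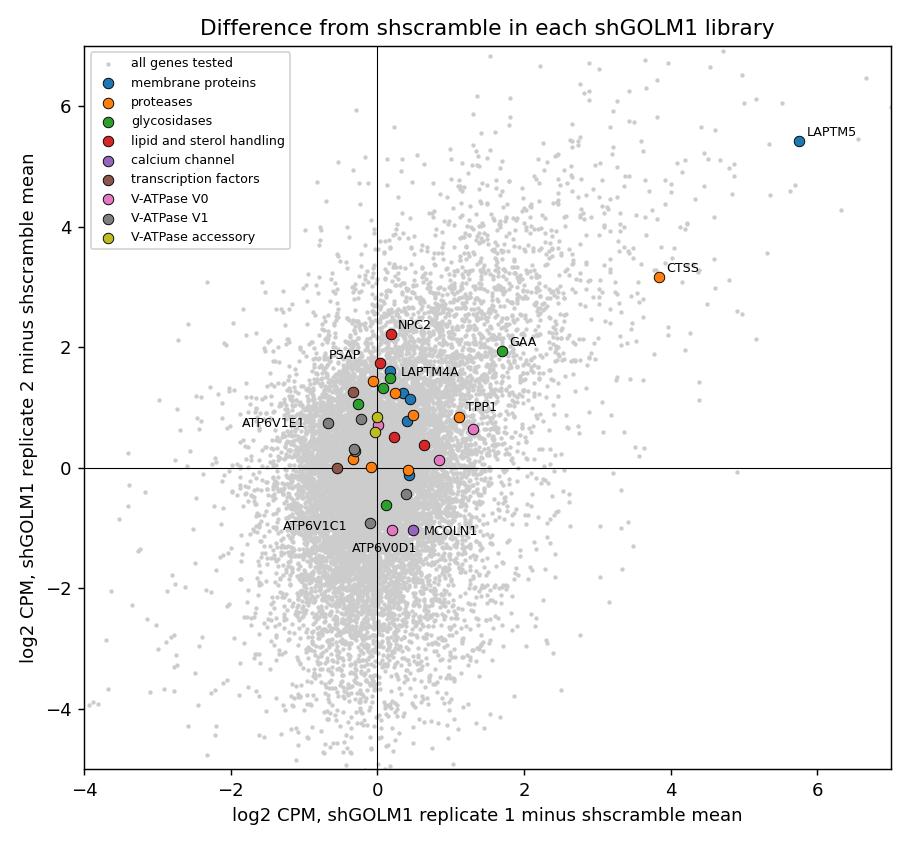
Difference in log2 CPM from the shscramble mean in shGOLM1 replicate 1 (x axis) and replicate 2 (y axis) for the 38 tested members, coloured by role, over all genes tested in grey; 78 grey genes lie outside the axes. LAPTM5, CTSS, GAA and TPP1 lie toward the upper right, several enzyme genes spread along the y axis alone, and MCOLN1 and ATP6V0D1 lie below 0 in replicate 2.

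The 12 V-ATPase genes held their summed level in replicate 1 and differed from each other in direction. Their CPM added up to 901 and 893 in shscramble, 890 in shGOLM1 replicate 1 and 1105 in replicate 2. The median log2 fold change was 0.26, against 0.76 for the 26 tested members outside the pump. In 3 of the 12 the groups were fully apart, with ATP6V0A1 and ATP6V0C higher and ATP6V1C1 lower. Over all genes tested, 25.2% were higher and 26.5% lower without overlap, so the pump genes were apart less often. None of the 12 was called higher in both single-library fits. Of the other 26, 9 were called higher in both, where 9.62% of all genes were. The difference between pump and other genes was not tested.

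In the membrane part, ATP6V0A1, which holds the proton path, was at 40.4 and 43.2 CPM in the controls against 74.6 and 45.7 CPM in shGOLM1. ATP6V0D1, which links the rotor to the membrane ring, was at 78.2 and 69.8 CPM against 84.8 and 35.9 CPM. These neighbours in the complex thus differed in replicate 2, where ATP6V0A1 was slightly above the controls and ATP6V0D1 well below. ATP6V0B, a ring subunit, was at 93.1 and 84.8 CPM against 89.2 and 145 CPM. The main ring subunit ATP6V0C was low, at 4.05 and 7.28 CPM in the controls against 13.4 and 8.52 CPM in shGOLM1, and it shares 57.5% of its exon length with a readthrough gene on its strand, which had 0 counts. Reads can also be shared with the pseudogene copy ATP6V0CP4, which had 2 and 0 counts in the controls and 4 and 161 in shGOLM1, beside 466 and 194 for ATP6V0C itself. Its shscramble libraries, with 132 and 242 counts, had the widest log2 gap between the controls among the 38 tested members.

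In the cytosolic part, ATP6V1C1, a regulatory subunit of the stalk, was the only member lower in both shGOLM1 libraries. It was at 81.4 and 85.3 CPM in the controls against 77.3 and 44.2 CPM in shGOLM1 (log2 fold change -0.46, SE 0.38, edgeR adjusted p = 0.632). ATP6V1E1, a stator subunit, was at 96.1 and 87.8 CPM in shscramble, 57.8 CPM in shGOLM1 replicate 1 and 154 CPM in replicate 2, called lower and higher in the single-library fits (edgeR adjusted p = 9.37e-05 and 3.31e-05). The catalytic subunit ATP6V1A was at 92 and 101 CPM against 126 and 71.4 CPM, the opposite pattern, while its partner in the catalytic ring, ATP6V1B2, was at 149 and 153 CPM against 123 and 184 CPM. The subunits that meet in one ring therefore lay on opposite sides of the shscramble mean in each shGOLM1 library. ATP6V1D, part of the central shaft, was at 57.3 and 55.6 CPM in the controls against 48.3 and 99.1 CPM in shGOLM1. ATP6V1H, which restrains the free cytosolic part, was at 48.3 and 45.3 CPM against 37.6 and 58.4 CPM, so both were below the controls in replicate 1 and above them in replicate 2. Of the accessory proteins, ATP6AP1 was at 63.8 and 61.1 CPM in shscramble against 62 and 112 CPM, and ATP6AP2 at 97.4 and 98.7 CPM against 96.2 and 148 CPM, so both matched the controls in replicate 1.

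Per length, the members spanned a wide range in the control cells. The authors' FPKM averaged 0.281 for CTSS, 0.399 for LAPTM5 and 1.41 for HEXA at the low end, and 46.8 for LAPTM4A, 55.9 for CD63 and 70.8 for PSAP at the high end, with a median of 11.5. In shGOLM1 the median was 17.1 FPKM. LAPTM5 was at place 37 of 38 in the order of shscramble levels and at place 16 in shGOLM1, at 19.8 FPKM, and GAA at place 28 and place 15, at 23 FPKM. CTSS was near the bottom in both, at place 37 in shGOLM1 with 3.37 FPKM.

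The replicates of shGOLM1 differed more than those of shscramble for 36 of the 38 members, as they did for 12371 of the 14166 genes tested. The median gap between libraries of a group was 0.10 on the log2 scale in shscramble and 0.70 in shGOLM1, beside 0.15 and 0.95 over all genes tested. In 18 members the shGOLM1 libraries lay on opposite sides of the shscramble mean, in 19 both lay above it and in 1 both lay below. The same counts over all genes tested are not given here, so these describe the members only. In the single-library fits edgeR called 15 members higher and 6 lower in replicate 1 (20.4% and 24.1% of all genes) and 24 higher and 5 lower in replicate 2 (33.3% and 34.1%). The 9 members called higher in both were LAMP2, LAPTM5, CD63, SCARB2, CTSD, CTSS, TPP1, GAA and NPC1, and 0 were called lower in both, where 13.9% of all genes were. MCOLN1 and ATP6V1A were called higher in replicate 1 and lower in replicate 2 (5.24% of all genes), and TFE3 and ATP6V1E1 the reverse (5.91%). The largest part of the surplus in replicate 2 came from few genes: the summed member level there was 2641 CPM above the shscramble mean, and PSAP, CTSB, NPC2, GUSB, LAPTM4A and CD63 made up 1780 CPM of it.

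A further 118 lysosomal genes in 6 lists were counted, of which 106 were tested. In edgeR 0 were called in either direction, and DESeq2 called 3 higher, ARSA, IDUA and TCIRG1, and 0 lower. The 3 of 106 are a share no larger than the 3.46% that DESeq2 called higher over all genes. Of the 106, 32 were higher and 18 lower without overlap, where 25.2% and 26.5% of all genes tested were. The median log2 fold change was 0.19, beside 0.05 over all genes tested. Other hydrolases and their activators came closest to the members, with 16 of 31 tested genes higher and 5 lower without overlap and a median of 0.54. ARSA, the sulfatase lost in metachromatic leukodystrophy, was at 9.56 and 8.39 CPM in the controls against 25 and 34.3 CPM in shGOLM1 (log2 fold change 1.72, SE 0.36, adjusted p = 0.42 in edgeR and 0.0284 in DESeq2). IDUA, which cuts heparan and dermatan sulfate, was at 1.81 and 1.32 CPM against 5.51 and 15 CPM. Both shGOLM1 libraries were thus above the controls for both enzymes.

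The remaining lists did not share a direction. Other membrane proteins and transporters had 7 of 21 higher and 2 lower without overlap, and their medians were 0.43 in replicate 1 and -0.32 in replicate 2; HGSNAT, an acetyltransferase for heparan sulfate, was at 7.39 and 11.4 CPM in shscramble against 24.4 and 25.9 CPM, and the transporter ABCA2 at 25 and 29.6 CPM against 52.1 and 98.8 CPM. Among 10 other V-ATPase subunits 2 were higher and 1 lower. TCIRG1, the form of the a subunit best known from osteoclasts, was at 44.6 and 44.2 CPM in the controls against 106 and 176 CPM in shGOLM1 (log2 fold change 1.67, SE 0.37, adjusted p = 0.42 in edgeR and 0.0376 in DESeq2), while ATP6V1C2 was at 0.368 and 1.02 CPM against 0.75 and 10.7 CPM. Genes that sort hydrolases to the lysosome had 2 of 17 higher and 4 lower, with AP3B1, an adaptor subunit, at 142 and 153 CPM against 184 and 259 CPM and the retromer subunit VPS29 at 78 and 70.8 CPM against 46.9 and 64.1 CPM.

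Regulators of nutrient sensing and of the TFEB family had 4 of 17 higher and 3 lower. SQSTM1, the autophagy receptor p62, was at 60.3 and 56.6 CPM in the controls against 131 and 163 CPM in shGOLM1, and FNIP1, a partner of folliculin, at 13.9 and 14 CPM against 39.7 and 26.9 CPM. Fusion and positioning genes had 1 of 10 higher and 3 lower, with VPS39, a tethering subunit, at 42.1 and 48.4 CPM against 54.8 and 59.2 CPM. Over all genes tested, 25.2% were higher and 26.5% lower without overlap. The members, the other hydrolases and the other membrane proteins had at least 3 times as many higher as lower genes. In the other membrane proteins the shGOLM1 libraries differed. Their median was 0.43 in replicate 1 and -0.32 in replicate 2, where 8 of 21 were above the shscramble mean. This is a reading of counts, and no test of the difference between lists was run.

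**Figure D4:**
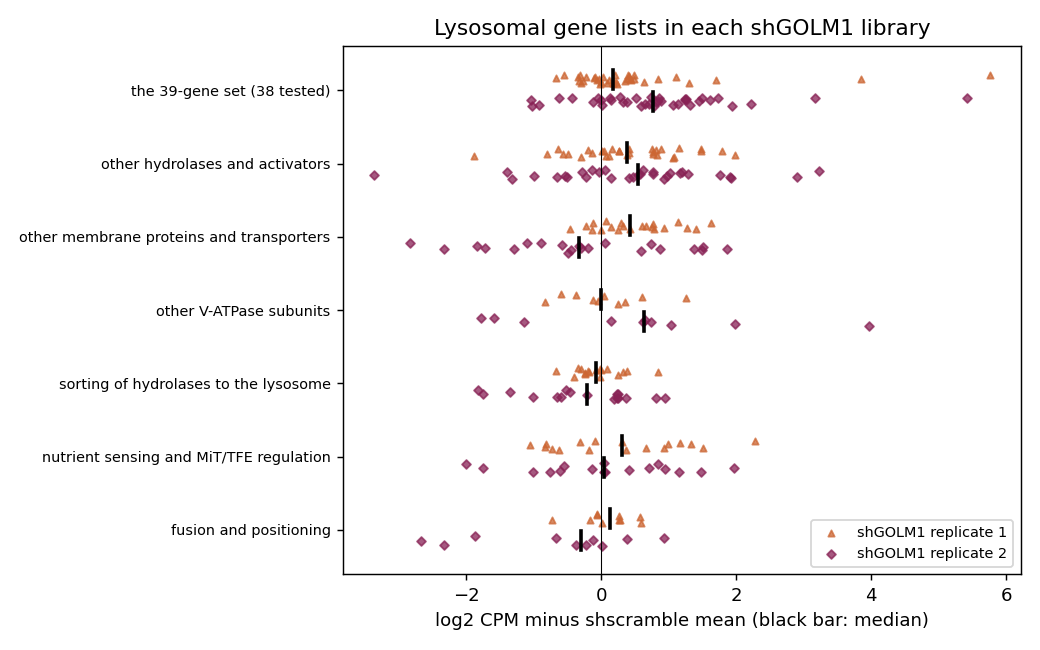
Difference in log2 CPM from the shscramble mean for each tested gene of the members and of the 6 further lysosomal lists, in shGOLM1 replicate 1 (triangles) and replicate 2 (diamonds), with the median as a black bar. The members' medians are 0.18 and 0.76 and those of the other hydrolases 0.39 and 0.54, while the sorting genes centre near -0.08 and -0.21.

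Bulk RNA cannot tell apart more transcript per cell from a larger share of cells that express a gene. With 2 libraries a group, an exact two-sided permutation test of a single gene cannot give a p below 0.333.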

How the data were processed

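Builds named in the submitters' processing notes are GRCm38 and mm10, both of mouse, but all 58735 gene identifiers of the deposited table, with their start and end, equal those of GENCODE 29 (GRCh38) and 0 are mouse identifiers. The sources used here do not name an aligner, counter or strand setting. The deposited counts are whole reads per gene. The FPKM were scaled by the authors per gene length and per a library total of 1.01 to 1.03 times the TMM-scaled one. The table also holds the authors' mean signal per group, the authors' p-values and their log2 fold change, per the file headers. Counts were tested with edgeR 4.0.16 (limma 3.58.1, R 4.3.3): TMM, filterByExpr, quasi-likelihood, two-sided, Benjamini-Hochberg over 14166 genes, all 4 libraries, no covariate. Log2 CPM used a prior count of 2. The SE printed with a log2 fold change was derived from the quasi-likelihood test and not estimated separately. It is the absolute log2 fold change divided by the square root of the F statistic. Alternatives were other size factors, filters, each library left out, a replicate block, the likelihood-ratio test, limma-voom and DESeq2 1.42.0. The procedure was also run on simulated data, but the outcome is not reported here and lends the results no support. Between the control libraries the chi-square per gene was 14.4, so they are separate libraries. Members, lists and tests were chosen with earlier results of these data known. Full values go to members whose groups do not overlap at a log2 fold change of at least 1 or that are extreme in level within their role. For each further list the rule takes the 2 genes with the smallest p and at least 1 CPM. The other members' values were added for completeness. Protein sequences were not used here. Figures were drawn with matplotlib 3.10.9. A gene that this rule names is not reported here.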

Additional observations from a re-analysis of the deposited data

How the results depend on the processing

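LAPTM5 and CTSS were also called higher by edgeR with no filter on low counts (2 members) and with the replicate number as a block (2 members, adjusted p of 1.36e-09 and 0.00963), and DESeq2 and the likelihood-ratio test called 3 members each. Other lysosomal genes called higher numbered 3 in each of these 2 tests. Leaving out 1 library, the members called ran from 0 to 24 higher and 0 to 6 lower, and the other lysosomal genes from 0 to 42 higher and 0 to 39 lower; the counts above 1 come from the fits without shGOLM1 replicate 1 (33.3% of all genes higher and 34.1% lower) or 2 (20.4% and 24.1%), where the other lysosomal genes had 38 higher and 39 lower, and 42 and 19, so that without replicate 1 they were close to all genes. Members higher without overlap ran from 17 to 29 with 1 library left out, and those lower from 1 to 12 (29 higher and 7 lower without shGOLM1 replicate 1, 23 and 12 without shGOLM1 replicate 2, 20 and 1 without shscramble replicate 1, 17 and 3 without shscramble replicate 2). A member higher without overlap can hardly lose that with a library fewer, so these counts do not bear on stability. With library totals alone 3 members were lower without overlap (14 of the 17 higher ones remained), with no filter 2 and with at least 5 CPM in 2 libraries 0. The members' median log2 fold change ran from 0.16 to 0.71 with 1 library left out. With no filter the median of all genes was 0.25, against 0.05. The same-numbered libraries share only a number (correlation of deviations -0.0977).

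Members near 0 changed sign. With at least 5 CPM, CTSL was at 0.0763, CTSZ at 0.0426 and MCOLN1 at 0.0323. With library totals alone ATP6V1B2 was at -0.11 and ATP6V1H at -0.10. With no filter ATP6V1A, ATP6V1B2 and ATP6V1H were at -0.0352, -0.0642 and -0.0461, with limma-voom at -0.00967, -0.0111 and -0.0139, and with the replicate block ATP6V1A and ATP6V1B2 at -0.0214 and -0.011. With 1 library left out, LAMP1 ran from -0.16 to 0.41, CTSA from -0.0898 to 0.40, CTSB from -0.0818 to 1.40, CTSL from -0.18 to 0.00682, CTSZ from -0.35 to 0.094, HEXA from -0.28 to 1.01, GLA from -0.67 to 0.10, MCOLN1 from -1.08 to 0.47 and TFE3 from -0.36 to 1.21. In the pump, ATP6V0B ran from -0.0124 to 0.66, ATP6V0D1 from -1.09 to 0.18, ATP6V1A from -0.48 to 0.37, ATP6V1B2 from -0.32 to 0.23, ATP6V1D from -0.24 to 0.76, ATP6V1E1 from -0.69 to 0.69, ATP6V1H from -0.33 to 0.27, ATP6AP1 from -0.0274 to 0.80 and ATP6AP2 from -0.0443 to 0.54. The cause was not tested.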

Other observations

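CTSS has a close relative beside it on chromosome 1, with 30250 bases and 0 coding genes between them. This neighbour, CTSK, the collagen-cutting protease of osteoclasts, was at 1.75 and 2.5 CPM in the controls against 2.54 and 4.04 CPM in shGOLM1, or 1.2-fold and 1.91-fold over the shscramble mean, where CTSS was at 15.1-fold and 9.38-fold. CTSC, which activates granule proteases in cytotoxic lymphocytes, was at 185 and 170 CPM in the controls against 114 and 125 CPM in shGOLM1, lower in both libraries (log2 fold change -0.57, SE 0.27, edgeR adjusted p = 0.473). These genes were picked after their values were seen.

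CTSA, GLB1 and NEU1 form a complex; NEU1 was at 69.9 and 63.4 CPM in the controls against 54.3 and 73.9 CPM in shGOLM1, while in replicate 2 CTSA was at 0.972-fold and GLB1 at 2.5-fold of the shscramble mean. Of the V-ATPase a subunits, ATP6V0A2, a form found in the Golgi apparatus and endosomes, was at 36.5 and 34.6 CPM in the controls against 54.3 and 11.8 CPM in shGOLM1, and TCIRG1 was higher in both. Of the receptors for mannose 6-phosphate, IGF2R was at 193 and 218 CPM against 368 and 130 CPM, and M6PR at 83.9 and 78.2 CPM against 68.7 and 59 CPM. These genes too were chosen after their values were seen, and no difference between them was tested.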
